A study of Mus musculus with 2 samples.

Results

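The 10 genes described here encode the core regulators of mitochondrial apoptosis in the BCL2 family: the pore-forming effectors Bax and Bak1, the guardians Bcl2, Bcl2l1 (BCL-XL), Bcl2l2 (BCL-W) and Mcl1, and the BH3-only proteins Bcl2l11 (BIM), Bbc3 (PUMA), Bad and Bid. They were chosen by gene symbol, and all 10 were found among the 31053 genes of the count matrices of both libraries. Their levels were followed across the germ cell stages and the somatic cell types of the adult mouse testis.

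The study profiled dissociated cells from testes of 8-month-old mice with 10x single-cell RNA sequencing. One library came from an Igf2bp1 KO testis, called conditional in the design text, and one from a WT testis. Igf2bp1 encodes an RNA-binding protein that regulates the stability and translation of its target mRNAs. The sources used here do not give the Cre driver, the deleted exons, the strain or the number of mice behind each library beyond the 2 mice of the whole design. With 1 library per genotype there was no replicate check of any difference between genotypes, and no test was made. Intervals are 95% and cover counting error only. The cells of a class come from the same library and are not replicates, and fewer transcripts per cell cannot be told apart from a different mix of stages within a class.

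BCL2 family proteins control whether the outer mitochondrial membrane stays intact. Activated BAX or BAK oligomerises in that membrane and releases cytochrome c, which sets off the caspase cascade. The guardians hold the effectors and the BH3-only proteins in check, and the BH3-only proteins bind the guardians through their BH3 domain or activate the effectors. In the mouse testis, loss of Bax or of Bcl2l2 is known to disturb spermatogenesis.

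The stretch that all 10 genes share is the one that codes for the core of the BH3 domain, the contact through which the members bind each other, and it is printed for each gene to show how far that core differs between them. It was read from the coding strand of the longest annotated coding transcript (GENCODE annotation, mm10), 5′ to 3′. Capitals mark 6 codons that match the BH3 core: leucine, 3 codons of any kind, then glycine, alanine or serine, then aspartate. The Bcl2l2 stretch had no leucine codon there and was found with a methionine codon in that place.
Bax: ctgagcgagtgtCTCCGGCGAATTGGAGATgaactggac
Bak1: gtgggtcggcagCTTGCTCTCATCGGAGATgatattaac
Bcl2: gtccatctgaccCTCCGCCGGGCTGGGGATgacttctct
Bcl2l1: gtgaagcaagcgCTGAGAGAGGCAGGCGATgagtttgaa
Bcl2l2: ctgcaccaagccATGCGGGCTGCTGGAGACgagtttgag
Mcl1: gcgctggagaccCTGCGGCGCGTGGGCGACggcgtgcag
Bcl2l11: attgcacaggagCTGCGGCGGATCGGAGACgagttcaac
Bbc3: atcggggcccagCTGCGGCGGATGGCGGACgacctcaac
Bad: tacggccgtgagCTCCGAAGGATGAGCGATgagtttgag
Bid: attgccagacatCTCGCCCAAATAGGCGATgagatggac

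Each stretch lies within 1 coding exon. In mm10 the effector stretches are at chr7:45465997-45466035 for Bax and chr17:27022531-27022569 for Bak1, both on the minus strand. The guardian stretches are at chr1:106712575-106712613 for Bcl2 and chr2:152829697-152829735 for Bcl2l1, both on the minus strand, and at chr14:54884505-54884543 for Bcl2l2 and chr3:95659424-95659462 for Mcl1, both on the plus strand. The BH3-only stretches are at chr2:128147138-128147176 for Bcl2l11, chr7:16313761-16313799 for Bbc3 and chr19:6950780-6950818 for Bad on the plus strand, and at chr6:120897289-120897327 for Bid on the minus strand. Of the 39 bases, Bcl2l11 and Bbc3 shared 27 (69.2%), the highest of all pairs, and the guardians Bcl2l1 and Bcl2l2 shared 26 (66.7%). Bax and Bak1 shared 20 (51.3%), and Mcl1 and Bid shared 13 (33.3%), the lowest of all pairs. The search pattern itself fixed part of this likeness.

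The Igf2bp1 KO library held 98033324 UMIs in 17968 barcodes and the WT library 121257944 UMIs in 17362 barcodes. After removal of barcodes with a high mitochondrial share, 17703 KO and 17002 WT barcodes remained, of which 8202 and 11258 were empty-like, in clusters with few UMIs in which no cell type other than erythroid cells had at least 50% of its markers raised over free RNA. A further 5551 KO and 628 WT barcodes lay in clusters with mixed markers and were not named, the largest of them led by Leydig cell genes and made of 4027 KO and 20 WT barcodes. The libraries shared 106 barcode sequences. Igf2bp1, the targeted gene, stood at 28.3 CPM (16 UMIs) in KO spermatogonia-like cells and 67.2 CPM (57 UMIs) in WT ones, a log2 ratio of −1.25 (−2.15 to −0.43). It was lower but still detected in the KO library, and whether these UMIs come from the deleted part of the gene was not tested.

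Members were compared between genotypes in the 6 classes with at least 50 cells in each library. They were spermatogonia-like (62 KO and 90 WT cells), late spermatocyte-like (411 and 1389), round spermatid-like (412 and 1029), elongating spermatid-like (846 and 1672), Sertoli-like (980 and 783) and macrophage-like cells (293 and 50). Class names rest on marker genes, and every marker of each of these 6 names was detected in its class in both libraries. Fewer germ markers stood at least 2-fold above free RNA, namely 9 of 13 in the elongating spermatid-like cluster, 4 of 10 in each late spermatocyte-like cluster and 0 of 11 in each round spermatid-like cluster. The round spermatid-like name rests on comparison with the other clusters, over which the median marker stood 0.96 and 1.03 higher on the log2 scale. Leydig-like (369 KO cells), B lymphocyte-like (351), T or NK lymphocyte-like (118) and mesenchymal-like cells (74) were described in the KO library alone, because WT held 42, 0, 4 and 29 of them. A cluster led by Stra8, a gene of meiotic entry, was left unnamed and held 45 KO and 83 WT cells. Small early spermatocyte-like (7 KO and 23 WT cells) and granulocyte-like clusters (27 and 5) were not analysed here.

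RNA from outside the cells (free RNA) was measured in the lowest decile of kept barcodes by UMI count. If each cell carried as many free UMIs as an average barcode of that decile, free RNA made up 57.7% of KO and 56.8% of WT UMIs in Sertoli-like cells and 45.4% and 41.5% in macrophage-like cells. In spermatogonia-like cells it was 14.2% and 10.3%, and in the later germ classes it ran from 6.0% to 9.4% in KO and from 3.2% to 5.8% in WT. Levels are given as UMIs per 1000000 UMIs of a class and library (CPM). Each molecule is tagged once in this assay, so levels were not divided by gene length, and levels of different genes may also reflect how well each is captured.

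**Figure D1:**
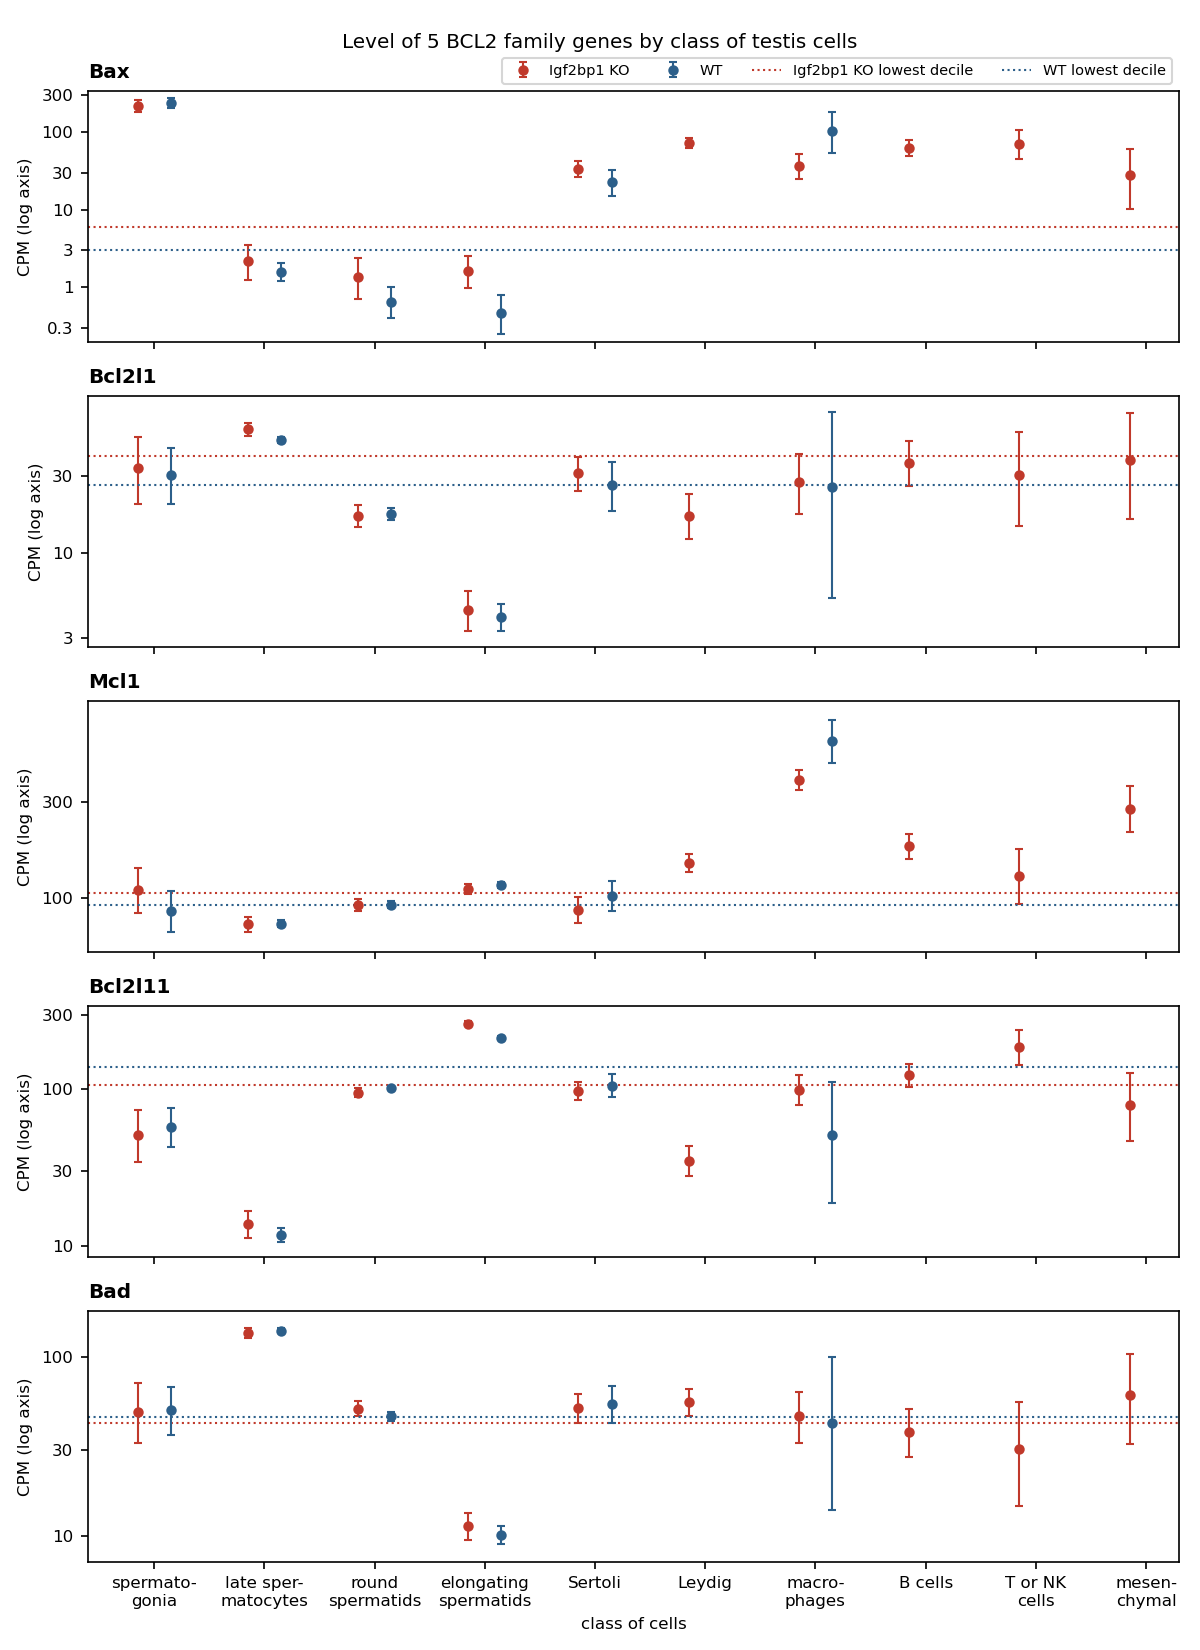
Level of Bax, Bcl2l1, Mcl1, Bcl2l11 and Bad (CPM, log axis) in each cell class with at least 50 cells, with Igf2bp1 KO left of WT, bars for the 95% Poisson interval and dotted lines for the lowest decile of barcodes of each library. Bax peaks in spermatogonia-like cells (217 CPM in KO and 237 CPM in WT), Bad in late spermatocyte-like cells, Bcl2l11 in elongating spermatid-like cells and Mcl1 in macrophage-like cells, in both libraries.

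Bax, the effector that moves from the cytosol to mitochondria (chr7:45461697-45466898, minus strand, mm10), led the family in spermatogonia-like cells and stood under 5 CPM in late spermatocyte-like cells and both spermatid classes. It stood at 217 CPM (123 UMIs; 181 to 259) in KO and 237 CPM (201 UMIs; 205 to 272) in WT spermatogonia-like cells. In late spermatocyte-like cells it stood at 2.19 CPM (16 UMIs) in KO and 1.60 CPM (54 UMIs) in WT. The spermatogonial level was thus 99.1-fold the late spermatocyte level in KO and 148-fold in WT. The Bax gene shares 915 bases on its own strand with Gm45808, a gene with no UMI in any class. How reads of that overlap were counted was not tested.

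In round spermatid-like cells Bax was at 1.35 CPM in KO and 0.652 CPM in WT, and in elongating spermatid-like cells at 1.62 CPM (19 UMIs) and 0.469 CPM (13 UMIs). At that share of free RNA, 6.67 of those 19 KO UMIs and 4.85 of those 13 WT UMIs in elongating cells would be free RNA. The WT Stra8-led cluster held Bax at 68.1 CPM (35 UMIs; 47.4 to 94.7), between the spermatogonial and late spermatocyte levels. Among somatic classes Bax was at 72.0 CPM in KO Leydig-like, 70.4 CPM in KO T or NK lymphocyte-like and 63.0 CPM in KO B lymphocyte-like cells, 3 levels that did not separate by their intervals.

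Sertoli-like cells, the nurse cells of the seminiferous epithelium, had Bax at 33.6 CPM (74 UMIs) in KO and 22.5 CPM (30 UMIs) in WT, against 6.07 CPM in KO and 3.0 CPM in WT in the lowest decile of barcodes. The smaller of their 2 clusters, with 50 KO and 7 WT cells and Sox9 at 235 and 360 CPM, held Bax at 70.6 and 53.4 CPM. The larger cluster held it at 26.8 CPM in KO and 20.6 CPM in WT. In macrophage-like cells Bax was at 37.0 CPM (31 UMIs) in KO and 102.9 CPM (12 UMIs) in WT.

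Bak1, the effector that resides in the mitochondrial membrane, did not share the spermatogonial level of Bax. No UMI was found in the 62 KO spermatogonia-like cells, which allows up to 5.30 CPM at a limit of 3 UMIs and up to 6.52 CPM by the 95% interval, and 1 UMI (1.18 CPM) in the 90 WT cells. Late spermatocyte-like cells held 2.88 CPM (21 UMIs) in KO and 4.08 CPM (138 UMIs) in WT, with a log2 ratio of −0.50 (−1.24 to 0.17). Elongating spermatid-like cells held 1.19 CPM in KO and 0.577 CPM in WT, and the lowest decile of barcodes 3.47 and 3.0 CPM. Of these levels, that of WT late spermatocyte-like cells alone lay above its decile, which held too few Bak1 UMIs to separate the pair. In WT the highest germ group was the late spermatocyte-like cluster with the most Piwil1, a gene of the piRNA pathway. It held Bak1 at 6.65 CPM (58 UMIs, interval 5.05 to 8.6). In KO that cluster held 2.83 CPM (8 UMIs) and the other late spermatocyte-like cluster 2.91 CPM (13 UMIs). The highest values were 14.3 CPM (12 UMIs) in KO macrophage-like cells, with no UMI in WT ones, and 12.2 CPM in KO T or NK lymphocyte-like cells. The Bak1 gene lies wholly within Ggnbp1 on the opposite strand, and Ggnbp1 reached 1857 CPM in KO and 1876 CPM in WT late spermatocyte-like cells. The sources used here do not say how strand was used in counting, and how far reads of the 2 genes were separated was not tested.

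Of the 4 guardians, Mcl1 and Bcl2l1 carried nearly all the germ cell signal. Mcl1, a guardian with a short-lived protein, was present at similar levels in all germ classes. It stood at 110 CPM (62 UMIs) in KO and 86.0 CPM (73 UMIs) in WT spermatogonia-like cells, and at 73.9 CPM (539 UMIs) and 74.3 CPM (2511 UMIs) in late spermatocyte-like cells. Round spermatid-like cells held 91.9 CPM in KO and 92.3 CPM in WT, and elongating spermatid-like cells 110.4 and 115.9 CPM. The lowest decile of barcodes held a like amount, 105 CPM in KO and 91.8 CPM in WT. Mcl1 was highest in macrophage-like cells, at 384 CPM (322 UMIs; 344 to 429) in KO and 600 CPM (70 UMIs; 468 to 758) in WT, above every other class of its library by the intervals. KO mesenchymal-like cells followed at 277 CPM and KO B lymphocyte-like cells at 180 CPM, each step larger than counting error.

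Bcl2l1, the guardian also called BCL-XL, was highest among the germ classes in late spermatocyte-like cells, at 58.5 CPM (427 UMIs; 53.1 to 64.3) in KO and 50.2 CPM (1699 UMIs; 47.9 to 52.7) in WT. Spermatogonia-like cells held 33.6 CPM (19 UMIs) in KO and 30.6 CPM (26 UMIs) in WT. Round spermatid-like cells held 17.0 and 17.5 CPM, and elongating spermatid-like cells 4.43 CPM (52 UMIs) in KO and 4.00 CPM (111 UMIs) in WT. The late spermatocyte level was 13.2-fold the elongating level in KO and 12.6-fold in WT. The WT Stra8-led cluster stood at 66.2 CPM (34 UMIs; 45.8 to 92.5), which did not separate from WT late spermatocyte-like cells. Sertoli-like levels, 31.3 CPM in KO and 26.2 CPM in WT, were at or under the 39.9 and 26.4 CPM of the lowest decile of barcodes.

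Among the classes described here, Bcl2, the founding guardian of the family, was nearly undetected outside T or NK lymphocyte-like cells. All barcodes of the KO library together held 214 Bcl2 UMIs and those of the WT library 19. Of the KO UMIs outside T or NK lymphocyte-like cells, most lay in barcodes outside the described classes. KO T or NK lymphocyte-like cells held 205 CPM (67 UMIs; 159 to 260), and the next KO class, mesenchymal-like cells, 18.8 CPM (4 UMIs). No other class of at least 50 cells passed 25.7 CPM, the value that 3 UMIs gave in the WT macrophage-like cells. Spermatogonia-like cells had 1 UMI in KO and 0 in WT, and late spermatocyte-like cells 1 and 2 UMIs. No UMI was found in round spermatid-like cells of either library. Bcl2l2, the guardian also called BCL-W, was scarce as well. Its highest level was 9.99 CPM (24 UMIs) in KO Leydig-like cells. Sertoli-like cells held 5.44 CPM (12 UMIs) in KO and 4.5 CPM (6 UMIs) in WT, and spermatogonia-like cells 1.77 CPM (1 UMI) in KO and 5.89 CPM (5 UMIs) in WT, none of which separated by their intervals. The lowest decile of barcodes held Bcl2l2 at 1.30 CPM in KO and 0 in WT. The Bcl2l2 gene shares 4794 bases on its own strand with Gm20521, a gene with no UMI in any class, and how reads of that overlap were counted was not tested.

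Among the BH3-only genes, Bcl2l11 and Bad had opposite courses through meiosis and spermiogenesis. Bcl2l11, whose product BIM binds all the guardians, stood at 51.2 CPM (29 UMIs) in KO and 57.7 CPM (49 UMIs) in WT spermatogonia-like cells. It was lowest in late spermatocyte-like cells, at 13.7 CPM (100 UMIs) in KO and 11.8 CPM (398 UMIs) in WT. Round spermatid-like cells held 95.3 CPM (845 UMIs) in KO and 102.2 CPM (3135 UMIs) in WT. Elongating spermatid-like cells held 263.7 CPM (3097 UMIs; 254 to 273) in KO and 214.5 CPM (5949 UMIs; 209 to 220) in WT. With the round spermatid-like clusters pooled, this was the highest of all classes in both libraries. The elongating level was 19.2-fold the late spermatocyte level in KO and 18.2-fold in WT. KO T or NK lymphocyte-like cells followed at 187 CPM (61 UMIs) and KO B lymphocyte-like cells at 123 CPM (139 UMIs). Sertoli-like cells held 97.5 CPM in KO and 105.6 CPM in WT, under the 107 and 139 CPM of the lowest decile of barcodes.

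Bad, a BH3-only protein held inactive by phosphorylation, peaked where Bcl2l11 was lowest. It stood at 136.6 CPM (997 UMIs) in KO and 141.1 CPM (4770 UMIs) in WT late spermatocyte-like cells, against 49.5 CPM (28 UMIs) and 50.7 CPM (43 UMIs) in spermatogonia-like cells of the same libraries. The late spermatocyte level was 2.76-fold the spermatogonial level in KO and 2.78-fold in WT. Round spermatid-like cells held 51.5 CPM in KO and 46.5 CPM in WT, and elongating spermatid-like cells 11.3 and 10.1 CPM. The late spermatocyte level was 12.1-fold the elongating level in KO and 14-fold in WT. Between those extremes, neighbouring classes in the order of Bad levels did not separate by their intervals in either library. Bad and Gpr137 share 620 bases on opposite strands, and Gpr137 stood at 80.7 CPM in KO and 84.8 CPM in WT late spermatocyte-like cells.

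Bid, which caspase-8 cleaves to link death receptors to mitochondria, followed Bax through the germ classes. It stood at 17.7 CPM (10 UMIs) in KO and 18.9 CPM (16 UMIs) in WT spermatogonia-like cells, and at 0.548 CPM (4 UMIs) and 0.414 CPM (14 UMIs) in late spermatocyte-like cells. Spermatids of both kinds held at most 0.255 CPM in KO and 0.180 CPM in WT. The spermatogonial level was 32.2-fold the late spermatocyte level in KO and 45.5-fold in WT. In KO Leydig-like cells, where Bax stood at 72.0 CPM (173 UMIs), Bid stood at 0.416 CPM (1 UMI). Bbc3, the p53 target that encodes PUMA, was close to the counting floor throughout. It had 3 UMIs in KO and 1 UMI in WT spermatogonia-like cells, and stood at 1.92 CPM (14 UMIs) in KO and 2.01 CPM (68 UMIs) in WT late spermatocyte-like cells. The late spermatocyte levels did not exceed the 2.60 CPM in KO and 3.0 CPM in WT of the lowest decile of barcodes, and the 3 UMIs in KO spermatogonia-like cells gave 5.30 CPM.

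Splitting the germ classes into their clusters placed the changes more finely. The late spermatocyte-like class held a cluster with Piwil1 at 826 CPM in KO and 880 CPM in WT, and a cluster with the meiotic division genes Aurka and Ccna1. The round spermatid-like class held a cluster with the protamine gene Prm1 at 2488 CPM in KO and 2981 CPM in WT, and one with Prm1 at 51450 and 34518 CPM. Bax was already at 3.53 CPM in KO and 4.13 CPM in WT in the Piwil1-high cluster, and at 1.34 and 0.717 CPM in the Aurka-high cluster. Bcl2l1 was at 71.4 CPM in KO and 65.7 CPM in WT in the Piwil1-high cluster, and at 50.4 and 44.9 CPM in the Aurka-high cluster.

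Bad differed little between those clusters, at 133 CPM in KO and 136 CPM in WT in the first and 139 and 143 CPM in the second. It stood at 61.3 CPM in KO and 60.3 CPM in WT in the Prm1-low round spermatid-like cluster, and at 15.0 and 18.9 CPM in the Prm1-high one. The step in Bcl2l11 lay between the round spermatid-like clusters. The Prm1-low cluster held 40.6 CPM (284 UMIs) in KO and 36.3 CPM (743 UMIs) in WT, and the Prm1-high cluster 300 CPM (561 UMIs) and 234 CPM (2392 UMIs), a 7.38-fold step in KO and a 6.45-fold step in WT. The Prm1-high levels lay above those of elongating spermatid-like cells, 263.7 CPM in KO and 214.5 CPM in WT.

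**Figure D2:**
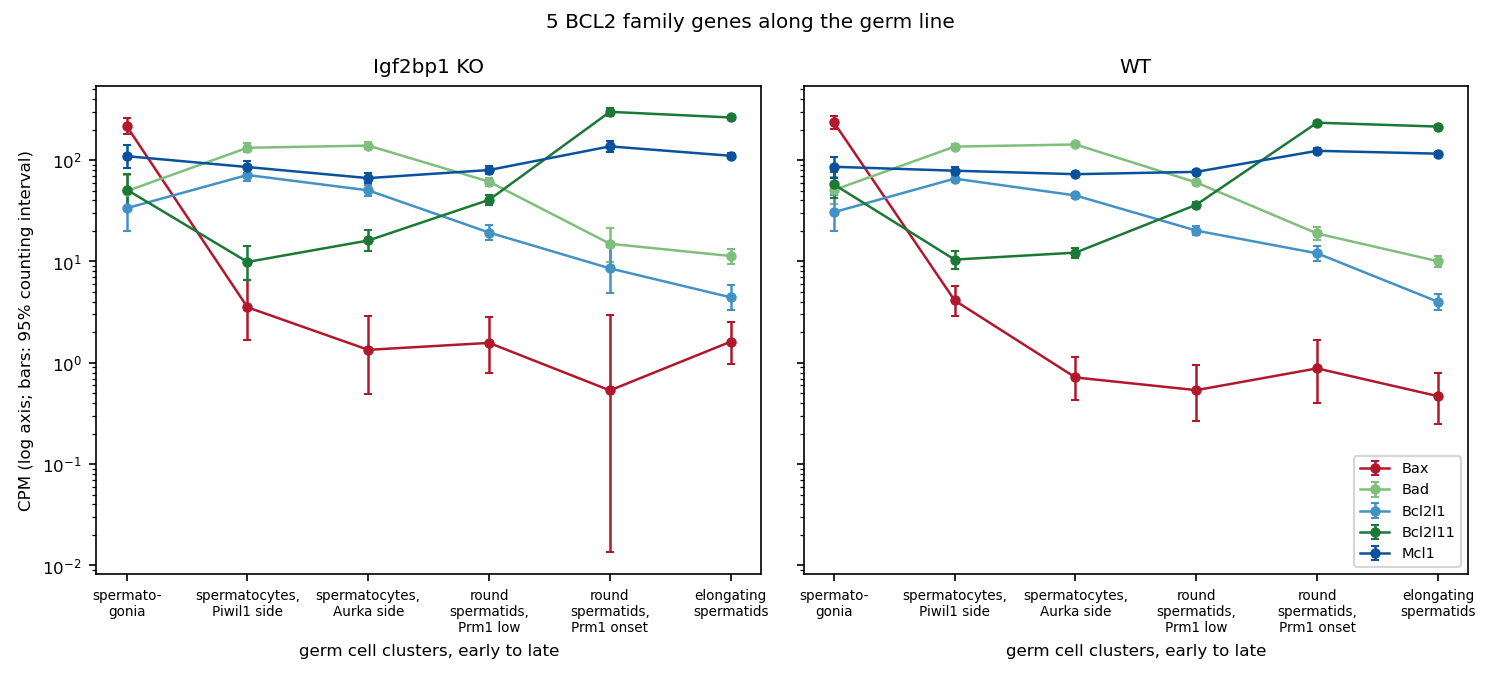
Level of Bax, Bad, Bcl2l1, Bcl2l11 and Mcl1 (CPM, log axis) along 6 germ cell groups ordered by stage markers, with Igf2bp1 KO in the left panel, WT in the right panel and 95% Poisson bars. Bax drops between spermatogonia-like and the first late spermatocyte-like cluster, and Bcl2l11 climbs between the round spermatid-like clusters to 300 CPM in KO and 234 CPM in WT.

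The sum of the 10 members varied less than its makeup. It was 487.5 CPM in KO and 488.9 CPM in WT spermatogonia-like cells, 290.5 and 285.8 CPM in late spermatocyte-like, 259.0 and 261.0 CPM in round spermatid-like, and 394.5 and 347.2 CPM in elongating spermatid-like cells. Macrophage-like cells had the highest sum of the 6 compared classes, 632.7 CPM in KO and 865.7 CPM in WT. The effectors made up 44.6% of the family's UMIs in KO and 48.7% in WT spermatogonia-like cells, but 1.75% and 1.99% in late spermatocyte-like and 0.712% and 0.301% in elongating spermatid-like cells. BH3-only genes made up 25.4% in KO and 26.3% in WT spermatogonia-like cells. Their share was 52.6% and 54.3% in late spermatocyte-like cells and 70.1% (68.8 to 71.4) in KO and 65.1% (64.2 to 66.1) in WT elongating spermatid-like cells.

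The leading member differed between spermatogonia-like, late spermatocyte-like and elongating spermatid-like cells in both libraries. Bax gave 44.6% of the family's UMIs in KO and 48.4% in WT spermatogonia-like cells, Bad 47.0% and 49.4% in late spermatocyte-like cells, and Bcl2l11 66.8% and 61.8% in elongating spermatid-like cells. Round spermatid-like cells were shared between Bcl2l11 (36.8% in KO and 39.2% in WT) and Mcl1 (35.5% and 35.4%). In macrophage-like cells guardians took the largest share, 66.4% in KO and 75.2% in WT, of which Mcl1 alone gave 60.8% and 69.3% of the family. KO T or NK lymphocyte-like cells had Bcl2 in the lead, unlike the other classes described here, at 30.3% of the family's UMIs. Bcl2l11 was close behind at 27.6%, with 61 UMIs against 67 for Bcl2.

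**Figure D3:**
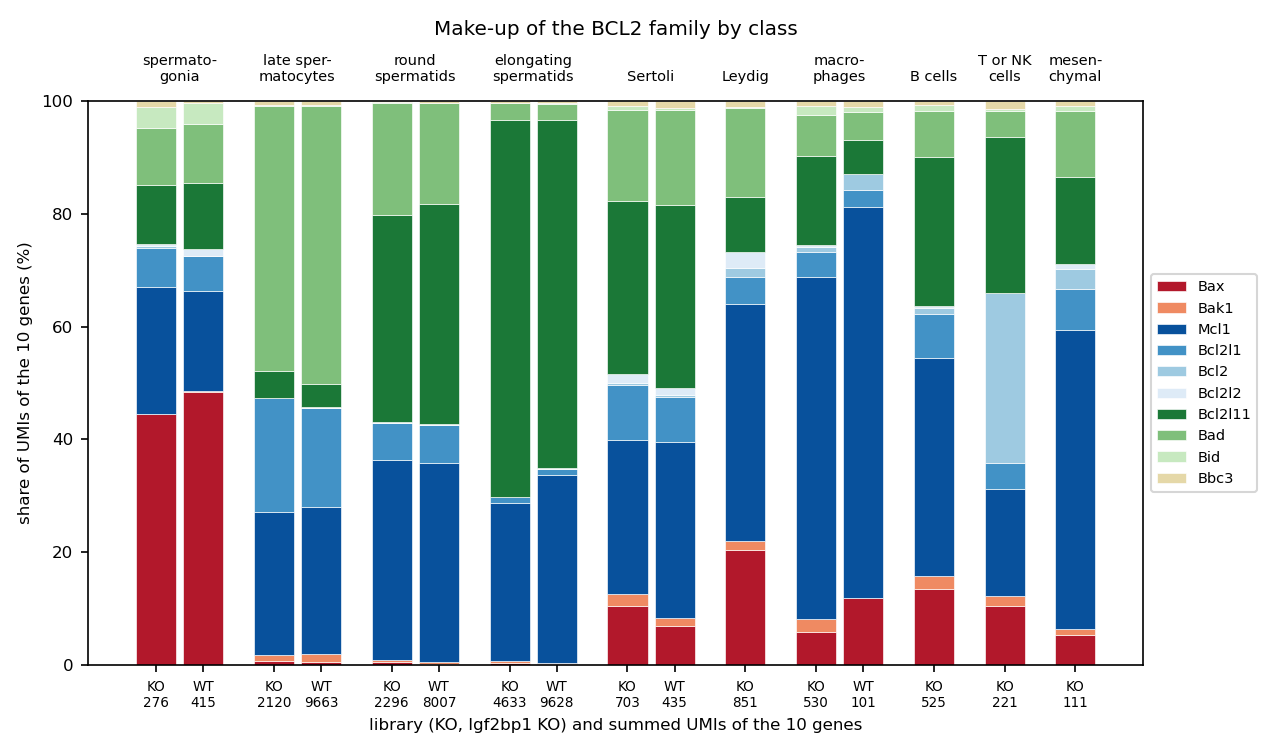
Share of the family's UMIs (percent) given by each of the 10 members in each cell class, as stacked bars with Igf2bp1 KO left of WT and the summed UMIs under each bar. The leading segment passes from Bax (44.6% in KO and 48.4% in WT) in spermatogonia-like cells to Bad in late spermatocyte-like and Bcl2l11 in elongating spermatid-like cells (66.8% and 61.8%).

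The comparison of the Igf2bp1 KO with the WT library asked whether the family differed within each class. A ratio was counted where the 2 libraries together held at least 50 UMIs of a gene, and called where it passed 1.5-fold in either direction. Of the 60 pairs of member and class, 27 were counted. These came from 7 members, while Bcl2, Bcl2l2 and Bid had too few UMIs in all 6 classes. In the germ classes 0 of 20 counted pairs passed 1.5-fold at these limits. In all classes 2 of 27 did, both in macrophage-like cells, against 12.9% of the 50133 gene and class pairs counted over all genes (8.87% higher and 4.05% lower in KO). Some germ pairs did pass 1.5-fold under other settings, given further below. By class, 0 of 4 counted members were called in spermatogonia-like cells, against 11.7% of all genes (5.72% higher and 5.97% lower in KO). In late spermatocyte-like cells 0 of 7 were called, against 10.6% of all genes (6.11% higher and 4.51% lower). In round spermatid-like cells 0 of 4 were called, against 8.03% (4.34% higher and 3.69% lower), and in elongating spermatid-like cells 0 of 5, against 15.2% (14.1% higher and 1.1% lower). In Sertoli-like cells 0 of 5 were called, against 13% (9.6% higher and 3.45% lower), and in macrophage-like cells both counted members, against 34.2% (23.8% higher and 10.4% lower).

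The median log2 ratio of the counted members lay close to that of all counted genes. It was −0.08 for 4 members against 0.02 for all genes in spermatogonia-like cells, −0.01 for 7 members against 0.02 in late spermatocyte-like cells, and −0.02 for 4 members against 0.01 in round spermatid-like cells. In elongating spermatid-like cells it was 0.15 for 5 members against 0.21 for all genes. In Sertoli-like cells it was −0.08 for 5 members against 0.07, and in macrophage-like cells 0.15 for 2 members against 0.19.

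Among germ cells, 2 counted ratios had an interval that left out 1. Bcl2l11 in elongating spermatid-like cells was at 263.7 CPM in KO and 214.5 CPM in WT, a log2 ratio of 0.30 (0.23 to 0.36). All genes of that class had a median of 0.21, and scaling with TMM factors lowered each ratio there by 0.28. On that scale Bcl2l11 was at 0.01 and Mcl1 at −0.35, against −0.07 (−0.16 to 0.02) for Mcl1 on the CPM scale, and the signs of Bcl2l1 (0.15 on the CPM scale and −0.14 after TMM) and Bad (0.17 and −0.11) turned. Bcl2l1 in late spermatocyte-like cells had a log2 ratio of 0.22 (0.06 to 0.37). The best counted members were near equal, with log2 ratios of −0.01 (−0.14 to 0.13) for Mcl1 and −0.05 (−0.15 to 0.05) for Bad in late spermatocyte-like cells. In round spermatid-like cells, pooled over clusters, they were −0.01 (−0.12 to 0.11) for Mcl1 and −0.10 (−0.21 to 0.01) for Bcl2l11. That Bcl2l11 value pools 2 clusters, and in each of them its level was higher in KO, within counting error in the Prm1-low cluster. The Prm1-high cluster, with the higher level, held 94 of 412 KO and 318 of 1029 WT cells. With the clusters weighted equally the Bcl2l11 log2 ratio was 0.33. Bax in elongating spermatid-like cells had a log2 ratio of 1.79 (0.69 to 2.93), but on 32 UMIs in all, under the minimum, of which the free RNA estimate above takes up 6.67 KO and 4.85 WT UMIs.

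In macrophage-like cells Mcl1 was lower in KO, at 384 CPM against 600 CPM in WT, a log2 ratio of −0.64 (−1.02 to −0.25), and Bcl2l11 higher, at 99.1 CPM (83 UMIs) against 51.4 CPM (6 UMIs), a log2 ratio of 0.95 (−0.24 to 2.43). Both Bcl2l11 levels lay under those of the lowest decile of barcodes, 107 CPM in KO and 139 CPM in WT, and free RNA as estimated above would give 40.6 of the 83 KO UMIs and 6.71 UMIs in WT, where 6 were found. With free RNA subtracted no Bcl2l11 ratio was left. The WT values rest on 50 cells, and 34.2% of all genes counted in this class were called. The class held 3 clusters in different proportions. The cluster led by Ccl4, Cxcl2 and Il1b held 69 of 293 KO and 26 of 50 WT cells, and its Mcl1 level was 668 CPM in KO and 786 CPM in WT, a log2 ratio of −0.23 (−0.73 to 0.28). A second cluster held 442 CPM in KO and 530 CPM in WT (log2 ratio −0.26, −0.93 to 0.47), and the remaining cluster, with 124 KO and 12 WT cells, 152 and 62.6 CPM, the WT value from 1 UMI. Neither of the first pair of ratios passed 1.5-fold. In Sertoli-like cells no counted member was called, and Bax, with a log2 ratio of 0.58 (−0.05 to 1.24), lay nearest to the limit.

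**Figure D4:**
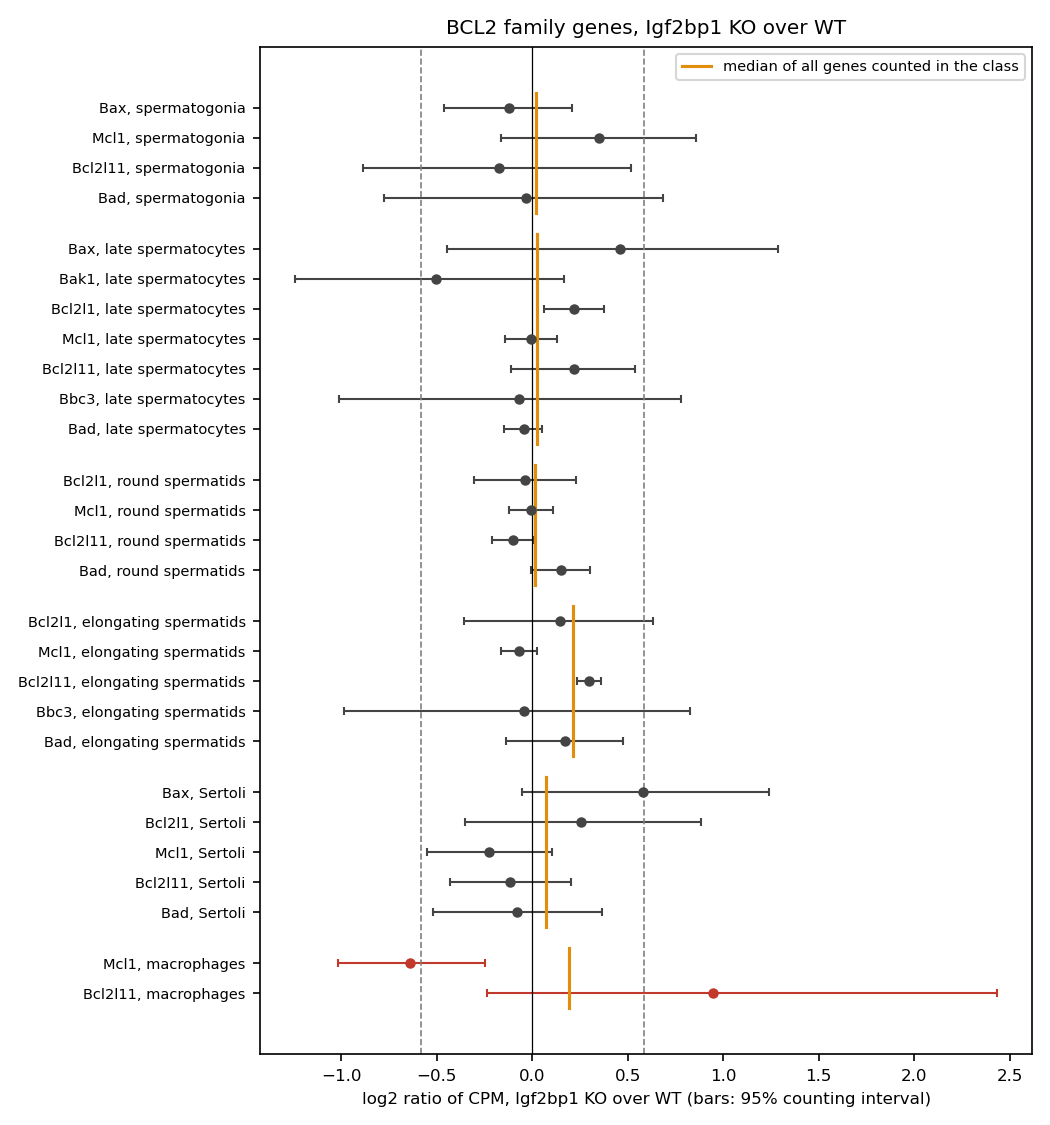
Log2 ratio of Igf2bp1 KO over WT for each member in each compared class with 95% intervals, drawn for pairs with at least 50 UMIs, with dashed lines at 1.5-fold, orange lines at the median of all counted genes of the class and called pairs in red. The germ cell ratios lie within 1.5-fold, and Mcl1 (−0.64) and Bcl2l11 (0.95) in macrophage-like cells lie outside it.

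By their point values, shares of cells with a UMI gave the same leading class for Bax and Bcl2. Bax was found in 44 of 62 KO (71.0%) and 74 of 90 WT (82.2%) spermatogonia-like cells, at median depths of 8670 and 8455.5 UMIs, against 3.41% of KO and 3.46% of WT late spermatocyte-like cells at 14157 and 19286 UMIs. When every cell was thinned to 1000 UMIs the spermatogonial share was 14.5% in KO (6.86 to 25.8) and 21.1% in WT (13.2 to 31.0), against 0.597% and 0.278% of empty-like barcodes. These thinned intervals overlapped those of some somatic classes. Among them were KO T or NK lymphocyte-like cells at 9.32% (4.75 to 16.1) and WT macrophage-like cells at 12.2% (4.63 to 24.8). Bcl2l11 was found in 83.5% of KO and 77.9% of WT elongating spermatid-like cells, which thinned to 19.1% (16.5 to 22.0) and 15.1% (13.4 to 16.9). Thinned empty-like barcodes, at median depths of 1481 and 1117 UMIs, held it at 10.3% in KO and 12.5% in WT, and Sertoli-like cells, at 9.49% and 11.2%, did not exceed them. Bcl2 was found in 40 of 118 KO T or NK lymphocyte-like cells (33.9%), or 19.5% after thinning, against 0.0732% of KO empty-like barcodes. For Mcl1 the leading class by thinned share was not settled in KO. Mesenchymal-like cells had 29.7% (19.7 to 41.5) and macrophage-like cells 25.3% (20.4 to 30.6). In WT, macrophage-like cells led at 42.9% (28.8 to 57.8).

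**Figure D5:**
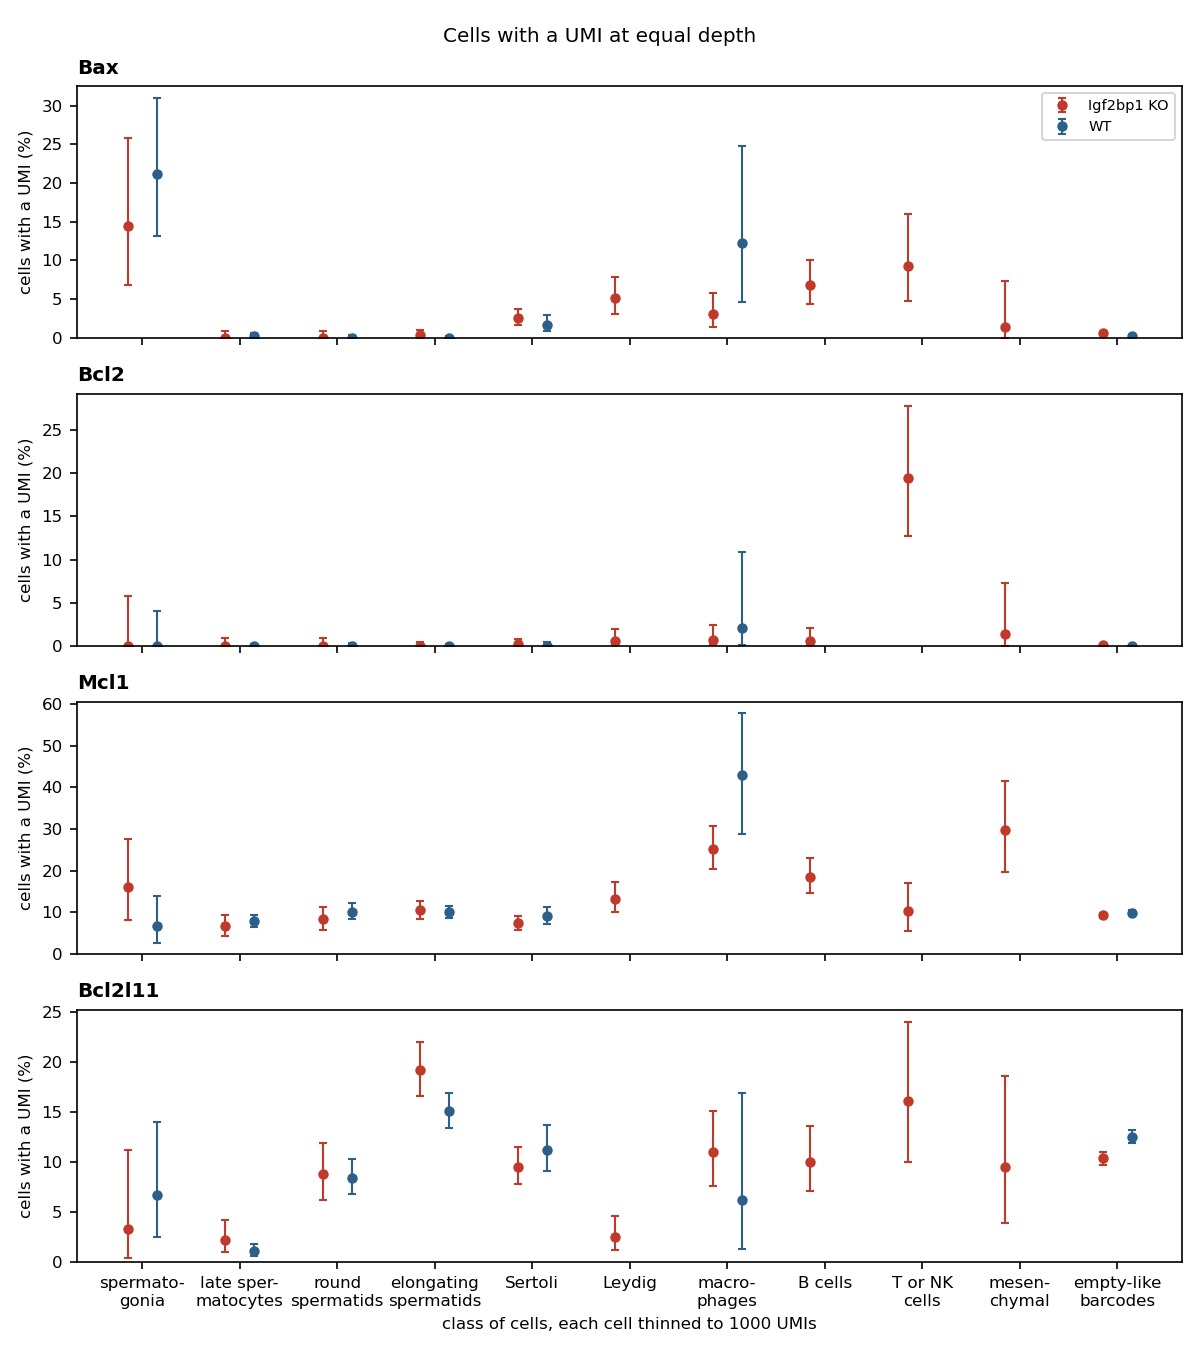
Percent of cells with at least 1 UMI of Bax, Bcl2, Mcl1 and Bcl2l11 after thinning each cell to 1000 UMIs, by class, with Igf2bp1 KO left of WT, 95% binomial bars and empty-like barcodes for background. Bax in spermatogonia-like cells (14.5% in KO and 21.1% in WT) and Bcl2 in KO T or NK lymphocyte-like cells (19.5%) stand far above the empty-like barcodes.

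Genes around the family in the same pathway were counted with the same limits. Over all genes the called share was 11.7% in spermatogonia-like, 10.6% in late spermatocyte-like, 8.03% in round spermatid-like and 15.2% in elongating spermatid-like cells. In the elongating class 14.1% were higher and 1.1% lower in KO. Ratios of the list genes are on the CPM scale. TMM factors, which lower each ratio of the elongating class by 0.28, were not applied to them. Few genes of a list were counted in a class, so single calls were not read as a result about the list. Of 15 other BCL2 family genes, 0 of 4 counted were called in spermatogonia-like cells, 1 of 5 was higher in late spermatocyte-like, 0 of 5 were called in round spermatid-like and 1 of 4 was higher in elongating spermatid-like cells. These were Bnip3, a mitophagy receptor, at 8.36 CPM in KO and 5.18 CPM in WT (log2 ratio 0.69, 0.25 to 1.12), and Bcl2l12 at 5.53 and 3.1 CPM (0.84). The median log2 ratio of the other family genes was −0.31 in spermatogonia-like, 0.08 in late spermatocyte-like, −0.08 in round spermatid-like and 0.12 in elongating spermatid-like cells. Of 17 genes of the apoptosome and the executioner caspases, 1 of 7 counted was lower in spermatogonia-like cells. This was Aifm1, the mitochondrial apoptosis-inducing factor, at 38.9 CPM in KO and 77.8 CPM in WT (log2 ratio −1.0, −1.77 to −0.29). None of the 9 counted in late spermatocyte-like or the 8 in round spermatid-like cells was called. In elongating spermatid-like cells 1 of 5 was higher, the cytochrome c gene Cycs, at 5.53 CPM in KO and 3.07 CPM in WT (0.85). The list's median log2 ratio ran from −0.13 in spermatogonia-like to 0.40 in elongating spermatid-like cells.

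Of 16 genes that regulate BCL2 family proteins, such as their ubiquitin ligases and transcription factors, 3 of 13 counted were higher and 1 lower in spermatogonia-like cells. Over all genes of that class 5.72% were higher and 5.97% lower. Atf4, a stress-response transcription factor, was at 81.3 CPM in KO and 36.5 CPM in WT (log2 ratio 1.15, 0.47 to 1.86). Fbxw7, a ubiquitin ligase subunit that targets MCL1, was at 111 and 62.4 CPM (0.83, 0.28 to 1.39), while Mcl1 itself had a log2 ratio of 0.35 (−0.16 to 0.86) in that class. The other two called genes, named after their values were seen, were Ddit3 (0.68, −0.1 to 1.46) and Ppp3ca (−0.59, −1.28 to 0.08), whose intervals included 0. None of the 14 counted in late spermatocyte-like or the 14 in round spermatid-like cells was called, and in elongating spermatid-like cells 2 of 14 were higher, Usp9x (0.74) and Ywhab (0.73). The median log2 ratio of the list was 0.15 in spermatogonia-like and 0.21 in elongating spermatid-like cells, against 0.02 and 0.21 for all genes.

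Of 13 genes of the p53 list, 1 of 5 counted was higher in spermatogonia-like cells: Mdm2, the ubiquitin ligase of p53, at 107.7 CPM in KO and 68.3 CPM in WT (log2 ratio 0.66, 0.11 to 1.2). Aen was higher in late spermatocyte-like cells (1 of 7 counted; 0.74, 0.29 to 1.18), and Cdkn1a, a cell cycle inhibitor, in round spermatid-like cells (1 of 6 counted) at 4.62 CPM in KO and 2.67 CPM in WT (0.79, 0.21 to 1.35). Of 11 death receptor genes none was counted in spermatogonia-like cells, and 1 of 4, Fasl, was lower in round spermatid-like cells with 6 KO and 50 WT UMIs. None of the 3 counted in late spermatocyte-like cells was called, nor the 1 in elongating spermatid-like cells. In elongating spermatid-like cells 1 of 4 counted p53 list genes was higher, Mdm2 (0.63), and the list's median was 0.11.

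In Sertoli-like cells free RNA was over 50% of UMIs, and 13% of all genes were called. Of the other family genes 2 of 5 were called, Bok higher (37.6 CPM in KO and 21.0 CPM in WT) and Bik lower (45.4 and 71.2 CPM). There, 3 of 15 regulators were higher (Fbxw7, Huwe1 and, named after its value was seen, Atf4), and no counted gene of the other 3 lists was called. In macrophage-like cells, where 34.2% of all genes were called, 1 gene of each list was called, of 3 other family genes, 3 apoptosome and caspase genes, 2 death receptor genes, 2 p53 list genes and 10 regulators counted. These were Bcl2a1b, one of several near-identical copies whose counts are uncertain (−1.61), Tnf (−1.36) and Cdkn1a (−0.72), all lower in KO, and Diablo (2.0) and Bag6 (1.27), both higher in KO.

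Across the 16 points formed by class and library, the members themselves were compared by Pearson's r on log2(CPM + 10). The points share libraries, depth and outside RNA. Bcl2l11 ran against Bad (r = −0.898) and against Bcl2l1 (−0.696), Bcl2l1 ran with Bad (0.853), and Bax with Bid (0.840). The genes most like Bax were Trim26 (0.980), Gm10073 (0.976) and Ncl (0.976). Those most like Bad were Gps1 (0.975), Mbd3 (0.969) and Insig2 (0.964), and those most like Bcl2l1 were Elf2 (0.969), Golga4 (0.966) and Ppp2r5c (0.961). Bcl2l11 was most like Atad1 (0.953), St6galnac2 (0.952) and Acsl1 (0.952), and Mcl1 most like Fcgr2b (0.961), Milr1 (0.949) and Ano6 (0.945). Bid was most like Csnk1e (0.975), Phc2 (0.963) and Nme4 (0.959). Bid stood under 10 CPM, the constant added, at all points but those of spermatogonia-like cells. Its r values, also that with Bax, therefore rest largely on those points. For 3 of the scarcer members, the nearest genes were Ctla2a for Bcl2 (0.967), Ifngr1 for Bbc3 (0.930) and the haemoglobin gene Hbb-bs for Bak1 (0.881).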

How the data were processed

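Cells of 1 Igf2bp1 KO and 1 WT testis library were profiled with 10x single-cell RNA sequencing. The values in the deposited matrices are unscaled UMI counts, which the authors made with Cell Ranger 2.2.0 and STAR on mm10, per the submitters' processing notes, while the matrix header names software version 3.1.0, per the file headers. Neither the kit chemistry nor the use of strand is stated in the labels. UMIs tag molecules, and PCR copies with the same tag are counted once.

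Barcodes with under 500 UMIs, under 250 genes or over 20% mitochondrial UMIs were removed. Doublets were not called, and clusters with mixed markers were left unnamed instead. Cells of both libraries were clustered together with scanpy 1.11.5 and leidenalg 0.10.2 (2000 variable genes, 30 components, 15 neighbours, resolution 1), and clusters were named from marker lists with limits set after the data were seen. Raw UMIs were summed by class and library, with exact Poisson intervals for levels, an exact conditional binomial interval for the ratio of KO over WT, and Clopper-Pearson intervals for shares (scipy 1.17.1, 95%). TMM factors came from edgeR 4.0.16. No test across libraries was possible with 1 library per genotype.

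All 10 members are named. Of each list, the genes past 1.5-fold among the 2 with the largest ratios in a class are named, and for each member the genes of highest Pearson r with at least 200 UMIs. The members and the 5 gene lists were chosen with earlier results of these data known. Alternatives covered fold, count minimum, scaling, barcode filter, naming of cells, free RNA, cluster weights and the cell with most UMIs.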

Additional observations from a re-analysis of the deposited data

How the results depend on the processing

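The count of members past 1.5-fold between Igf2bp1 KO and WT, 2 of 27 counted pairs of member and class, depended on the settings. It was 0 with a 2-fold limit, 6 of 38 with at least 20 UMIs, 1 of 15 with at least 200 UMIs (Mcl1 in macrophage-like cells) and 1 where the interval also had to leave out equality (the same pair). TMM factors gave 1 (Bcl2l11 in macrophage-like cells), the stricter barcode filter 1 of 21 (Bax in Sertoli-like cells, with macrophage-like cells no longer compared), and naming mixed clusters by their best class 7. With macrophage-like cells left out, an alternative added after the data were seen, it was 0 of 25. The share over all genes was computed at the main setting alone, where it was 12.9%. Whether other settings also called more or fewer of all genes was not tested.

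The other settings gave 2 or 3 called pairs, but not the same ones. Median scaling and leaving out shared barcode sequences (added after the data were seen) kept both pairs. Subtracting free RNA kept Mcl1 in macrophage-like cells and added Bcl2l1 in elongating spermatid-like and Mcl1 in Sertoli-like cells, and leaving out the cell with most UMIs kept Bcl2l11 in macrophage-like cells and added Bax in Sertoli-like cells. Weighting clusters equally kept neither, and gave a log2 ratio of −0.68 for Bad in spermatogonia-like cells. Naming each barcode by its own markers left macrophage-like cells out of the comparison and called 3 of 25 other pairs. It gave −1.02 for Bak1 and −0.67 for Bbc3 in late spermatocyte-like cells, and 0.83 for Bcl2l1 in elongating spermatid-like cells. Naming mixed clusters by their best class gave 2.00 for Bax and 1.95 for Bcl2l11 in late spermatocyte-like cells. The cause was not tested. Over the 7 settings that gave a value, the log2 ratio of Mcl1 in macrophage-like cells ran from −0.84 to −0.13, and over 6 that of Bcl2l11 in the same cells from 0.46 to 1.14. Over 9 settings that of Bcl2l11 in elongating spermatid-like cells ran from −0.01 to 0.37 and that of Bcl2l1 in late spermatocyte-like cells from −0.10 to 0.23. In round spermatid-like cells that of Bcl2l11 ran from −0.15 with TMM factors to 0.33 with clusters weighted equally.

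Naming each barcode by its own markers moved 37 of 150 levels outside their counting interval, and subtracting free RNA moved 31 of 170. No paired analysis was possible because each genotype has 1 library. Depth limits Bak1, Bcl2, Bcl2l2, Bbc3 and Bid most, whose levels in most classes rest on few UMIs.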

Other observations

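Bcl2l14, a BCL2 relative outside the 10 members, had the highest spermatid level of the other family genes listed. It stood at 497.8 CPM (5847 UMIs) in Igf2bp1 KO and 568.9 CPM (15777 UMIs) in WT elongating spermatid-like cells, a log2 ratio of −0.19 (−0.24 to −0.15), above Bcl2l11 in the same cells. Round spermatid-like cells held 281.9 CPM in KO and 298.6 CPM in WT, late spermatocyte-like cells 61.7 and 58.3 CPM, and spermatogonia-like cells 74.2 and 81.3 CPM. Bnip3l, a mitophagy receptor, ran the other way, at 182 CPM in KO and 257 CPM in WT spermatogonia-like cells, a log2 ratio of −0.50 (−0.85 to −0.15). In elongating spermatid-like cells it stood at 8.6 CPM in KO and 7.21 CPM in WT.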
